A study of Mus musculus with 9 samples.

Results

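The proteasome genes of LPS-treated mouse peritoneal macrophages were followed across 3 culture conditions. Members were chosen by symbol and by mean level: the rows of the deposited expression table whose symbol starts with Psma, Psmb, Psmc, Psmd, Psme, Psmf or Psmg followed by a number, with pseudogenes left out and whose FPKM averaged at least 1 over the 9 libraries. FPKM corrects a gene's fragment number for how long the transcript is and how deeply the library was sequenced, so it allows levels to be compared between genes. Of 55335 rows, 50 carried such a symbol and 46 reached the minimum. Psmg3 and Psmf1 lay just inside it, with means of 1.51 and 1.87 FPKM. Psmd9, a chaperone of base assembly, lay just outside with 0.845 FPKM, and Psmc3ip, which encodes a meiotic recombination factor and no proteasome subunit, had 0.453 FPKM. The thymus-specific catalytic gene Psmb11 and the testis-specific alpha gene Psma8 were near 0, at 0.0223 and 0.0211 FPKM. Among members, Psmf1 alone had a group mean under the minimum, 0.556 FPKM in LPS+EtOH. The minimum is the measured value that chose the members, and no test below uses it.

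Each condition had 3 libraries, and each library was made from a pool of 3 RNA samples. LPS+CPZ cells received 1 µg/mL LPS and 100 µM CPZ, LPS+EtOH cells received 1 µg/mL LPS and 5% ethanol, and LPS cells received 1 µg/mL LPS alone, in each case for 4 h after 1 h in RPMI medium. LPS, the bacterial cell wall component that activates Toll-like receptor 4, was thus present in all groups, and cells without LPS or with a solvent control were not analysed here. The series concerns alcohol, M2b macrophage polarization and TRPV1-MAPK/NF-kB signalling in colitis, and what CPZ stands for and the age and strain of the mice are not given in the sources used here.

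The proteasome degrades proteins tagged with ubiquitin. Its barrel-shaped core has outer rings of alpha subunits, which gate the entrance, and inner rings of beta subunits, some of which carry the proteolytic sites. A regulatory particle caps the core: its base holds a ring of ATPases that unfold substrates, and its lid and ubiquitin receptors capture and deubiquitinate them. In cells exposed to interferon gamma, and constitutively in many immune cells, Psmb8, Psmb9 and Psmb10 replace the catalytic subunits Psmb5, Psmb6 and Psmb7 to form the immunoproteasome, whose products suit loading on MHC class I. The PA28 activators, encoded by Psme1, Psme2 and Psme3, and PA200, encoded by Psme4, dock on the core in place of the regulatory particle.

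The groups differed widely beyond the proteasome. The number of genes at or above 1 FPKM was 10353 ± 249.3 in LPS+CPZ, 8148 ± 189 in LPS+EtOH and 11183 ± 85.0 in LPS (SD, n = 3 each). Adult globin genes took 0.0452 to 0.0972% of summed FPKM in LPS+CPZ, 0.172 to 0.221% in LPS+EtOH and 11.5 to 29.4% in LPS libraries. Over the 11721 genes tested, the median log2 change was 0.55 for LPS+CPZ against LPS+EtOH, -0.82 for LPS+EtOH against LPS and -0.33 for LPS+CPZ against LPS. Median-ratio scaling, which sets the typical gene to the same level in each library, brought these medians to 0.08, -0.08 and -0.08, so each count below is given on the deposited scale and then under this scaling. Of the macrophage markers, Adgre1 had 79.0, 81.8 and 105 FPKM in LPS+CPZ, 85.3, 81.9 and 99.8 FPKM in LPS+EtOH and 150, 135 and 139 FPKM in LPS, while Mertk stayed below 1 FPKM in all 9 libraries and Fcgr1 in those of LPS+EtOH; the 7 markers summed to 758 to 909 FPKM in LPS+CPZ, 2429 to 2697 FPKM in LPS+EtOH and 1570 to 2045 FPKM in LPS. Of these 7, Cd14 alone had its highest group mean in LPS+EtOH, with 406, 2177 and 907 FPKM in LPS+CPZ, LPS+EtOH and LPS. The summed FPKM of 10 neutrophil markers was 6384 to 6890 in LPS+CPZ, 43750 to 48330 in LPS+EtOH and 3857 to 5428 in LPS, with none of the 10 below 1 FPKM in all libraries of a group. S100a9, with a mean of 33420 FPKM, made up most of the LPS+EtOH sum. Ly6g alone of the 10 was not highest in LPS+EtOH, with means of 274, 156 and 16.9 FPKM in LPS+CPZ, LPS+EtOH and LPS. The 7 B cell markers summed to 1187 to 1400 FPKM in LPS+CPZ, 140 to 191 FPKM in LPS+EtOH and 1400 to 2018 FPKM in LPS. In such mixed bulk RNA, fewer cells of a type and less RNA per cell cannot be told apart, and the part of these cells in the results below was not tested.

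Summed over all 46 members, proteasome transcripts stood at 1147 to 1419 FPKM in LPS+CPZ, 754 to 852 FPKM in LPS+EtOH and 1057 to 1216 FPKM in LPS libraries. The LPS+EtOH libraries were below all others, whereas the LPS+CPZ and LPS ranges overlapped. All 46 members entered the test, which was limma on log2(FPKM + 1) over all genes, called where the Benjamini-Hochberg adjusted p was under 0.05. For LPS+CPZ against LPS+EtOH, 37 members were higher and 4 lower, while 61.4% of all genes tested were higher and 15.2% lower. The members' median log2 change was 1.03. Median-ratio scaling changed this to 24 higher and 13 lower members, against 35.6% and 31.4% of all genes.

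For LPS+EtOH against LPS, 3 members were higher and 32 lower, with 19.0% and 64.6% of all genes called in those directions and a members' median of -0.61. The balance turned round under median-ratio scaling, to 24 higher and 10 lower members, against 37.8% and 42.1% of all genes and with a members' median of 0.39. For LPS+CPZ against LPS, 21 members were higher and 11 lower, with 20.7% and 48.4% of all genes called so and a members' median of 0.24. Median-ratio scaling gave 30 higher and 9 lower members there, against 27.5% and 34.1% of all genes, with a members' median of 0.55. The comparisons share groups, so they are not independent of each other. Single libraries moved few calls: leaving out each library in turn kept the counts for LPS+CPZ against LPS between 19 and 23 higher and between 10 and 12 lower, and no called member turned its sign in any comparison.

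Other rules of scaling and calling gave further counts. Under quantile scaling, 30 members were higher and 8 lower in LPS+CPZ than in LPS+EtOH (32.8% and 26.8% of all genes), 13 higher and 20 lower in LPS+EtOH than in LPS (35.5% and 39.5%), and 27 higher and 10 lower in LPS+CPZ than in LPS (29.4% and 34.7%). Under TPM scaling, which sets each library to the same sum, the counts were 37 and 4 (62.4% and 14.0%), 3 and 32 (17.0% and 65.8%), and 19 and 12 (18.7% and 48.6%). The same comparisons with globin genes left out gave 37 and 4 (59.1% and 14.8%), 1 and 37 (14.8% and 70.0%), and 12 and 15 (14.9% and 59.6%). When a log2 change of at least 1 in size was also asked, they gave 24 and 2 (24.0% and 7.24%), 0 and 14 (10.1% and 43.4%), and 2 and 6 (9.74% and 17.2%). The 2 that rose by that much in LPS+CPZ relative to LPS were Psmb5 and Psmd1, and the 6 that fell were Psmb8, Psmb10, Psme1, Psme2, Psme2b and Psme3.

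**Figure D1:**
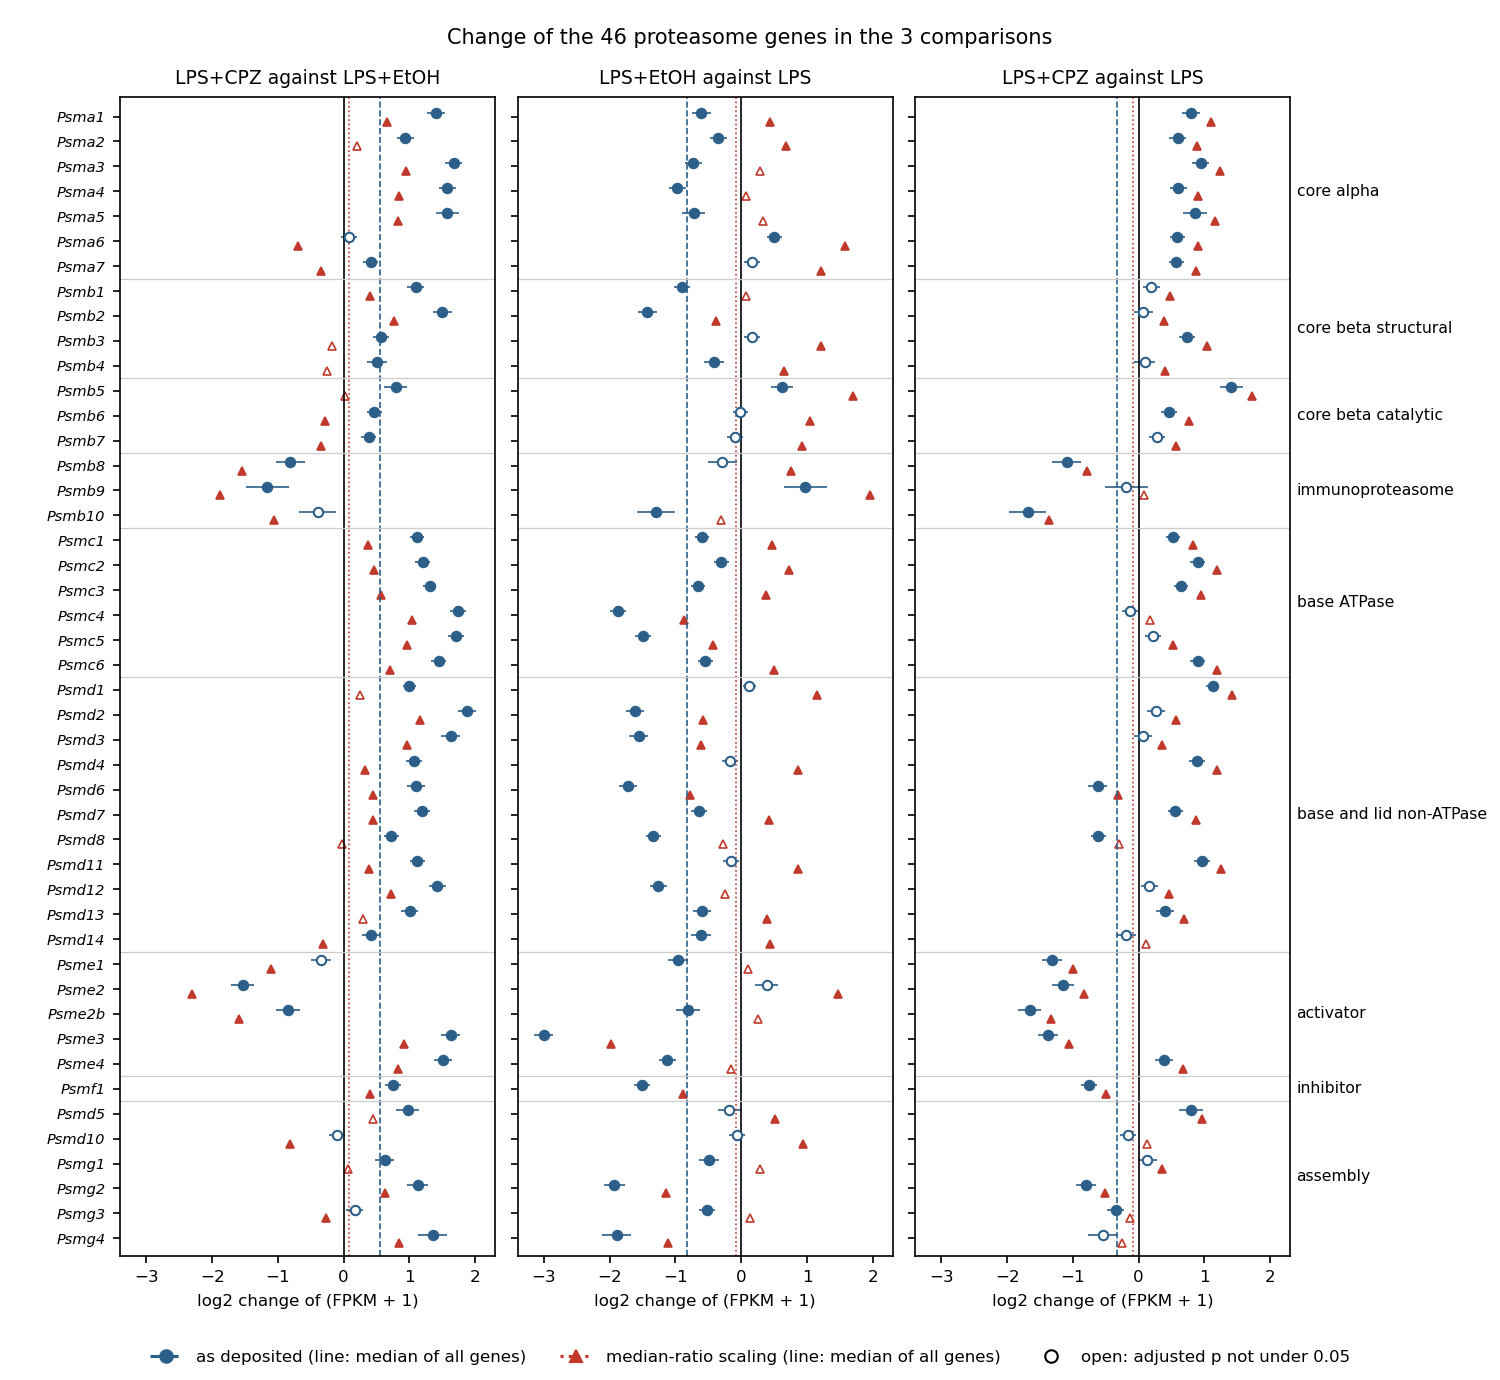
Log2 change of FPKM + 1 for the 46 proteasome genes, ordered by role, in LPS+CPZ against LPS+EtOH, LPS+EtOH against LPS and LPS+CPZ against LPS (n = 3 libraries a group). Blue circles with SE bars show the deposited scale and red triangles median-ratio scaling, open symbols did not reach adjusted p under 0.05, and dashed and dotted lines mark the median of all genes at 0.55, -0.82 and -0.33 and at 0.08, -0.08 and -0.08. In the right panel the alpha subunits lie to the right of 0 on both scales, while Psmb8, Psmb10, Psme1, Psme2, Psme2b and Psme3 lie to the left.

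The alpha subunits, which form the outer rings and the gate of the core, rose together in LPS+CPZ relative to LPS. All 7 were higher, where 20.7% of all genes were, with log2 changes of 0.57 to 0.94 and a median of 0.60, and the 3 LPS+CPZ libraries lay above the 3 LPS libraries for each of them. The count stayed at 7 under median-ratio, quantile and TPM scaling and was 3 when globin genes were left out, with none lower under any of these. In that order, 27.5%, 29.4%, 18.7% and 14.9% of all genes were higher. Psma3 had 26.9, 31.3 and 35.4 FPKM in LPS+CPZ, 8.65, 8.96 and 9.58 FPKM in LPS+EtOH and 14.3, 17.5 and 15.3 FPKM in LPS. Its levels did not overlap between any 2 groups, and its log2 change was 0.94 ± 0.13 (SE) for LPS+CPZ against LPS (limma adjusted p = 9.26e-05) and 1.67 ± 0.13 for LPS+CPZ against LPS+EtOH (limma adjusted p = 2.13e-06).

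Psma4 had 34.9, 35.5 and 46.6 FPKM in LPS+CPZ, 12.4, 12.0 and 12.6 FPKM in LPS+EtOH and 23.4, 27.1 and 24.9 FPKM in LPS. Here too the groups stood apart, LPS+CPZ highest and LPS+EtOH lowest. Its log2 change was 0.60 ± 0.13 for LPS+CPZ against LPS (limma adjusted p = 0.00182; 0.30 and not called with globin genes left out) and -0.97 ± 0.13 for LPS+EtOH against LPS (limma adjusted p = 3.58e-05), the second becoming 0.07 and no longer called under median-ratio scaling. Psma6, the most abundant alpha transcript in each group, behaved otherwise: it had 77.5, 87.1 and 92.6 FPKM in LPS+CPZ, 83.8, 75.3 and 83.7 FPKM in LPS+EtOH and 53.0, 59.6 and 57.6 FPKM in LPS. It was thus the single alpha gene that was higher in LPS+EtOH than in LPS on the deposited scale. Its log2 change was 0.50 ± 0.12 (limma adjusted p = 0.00186), a call lost with globin genes left out. On the deposited scale 5 of the 7 were lower in LPS+EtOH, where 64.6% of all genes were lower and 19.0% higher. Under median-ratio scaling 4 of the 7, Psma1, Psma2, Psma6 and Psma7, were higher in LPS+EtOH and none was lower, against 37.8% and 42.1% of all genes.

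Of the 4 beta subunits without a proteolytic site, Psmb1, Psmb2, Psmb3 and Psmb4, Psmb3 alone was called for LPS+CPZ against LPS on the deposited scale. It was higher, as were 20.7% of all genes. Under median-ratio scaling all 4 were higher, as were 27.5% of all genes. Psmb3 had 30.2, 34.2 and 37.5 FPKM in LPS+CPZ, 23.4, 20.5 and 23.6 FPKM in LPS+EtOH and 19.5, 21.4 and 18.9 FPKM in LPS. The LPS+CPZ libraries lay above the rest, and the LPS+EtOH and LPS libraries overlapped. Its log2 change was 0.74 ± 0.12 for LPS+CPZ against LPS (limma adjusted p = 0.000279). Psmb2 showed another order, with 29.1, 34.0 and 40.6 FPKM in LPS+CPZ, 10.9, 11.1 and 12.5 FPKM in LPS+EtOH and 27.96, 36.8 and 33.4 FPKM in LPS. The LPS+EtOH libraries were far below both other groups, which overlapped, and the log2 change was -1.43 ± 0.15 for LPS+EtOH against LPS (limma adjusted p = 4.82e-06) and -0.39 under median-ratio scaling, still called.

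The catalytic genes, their immunoproteasome counterparts and the activators differed in direction in LPS+CPZ relative to LPS. The promoter windows of Psmb5, Psmb6, Psmb8 and Psme1 are shown as examples, and each held a match to 1 of the motifs searched. They run from 250 bases before to 50 bases after the annotated start, as RefSeq gives them on GRCm38.p6. Capitals mark a match to the antioxidant response element core TGACNNNGC in Psmb5 and Psmb6, which NFE2L1 and NFE2L2 bind with small MAF proteins, to the gamma-activated site TTCNNNGAA of interferon gamma responses in Psmb8, and to the interferon-stimulated response element core (GAAA, any 2 bases and GAAA) in Psme1, where it lies on the reverse strand.
Psmb5, chr14:54617946-54618245, minus strand: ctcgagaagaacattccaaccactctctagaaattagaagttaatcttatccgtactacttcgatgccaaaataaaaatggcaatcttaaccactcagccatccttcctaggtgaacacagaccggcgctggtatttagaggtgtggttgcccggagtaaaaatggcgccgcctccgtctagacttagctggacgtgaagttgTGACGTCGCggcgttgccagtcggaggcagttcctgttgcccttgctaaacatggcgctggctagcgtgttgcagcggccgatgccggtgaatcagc
Psmb6, chr11:70525107-70525406, plus strand: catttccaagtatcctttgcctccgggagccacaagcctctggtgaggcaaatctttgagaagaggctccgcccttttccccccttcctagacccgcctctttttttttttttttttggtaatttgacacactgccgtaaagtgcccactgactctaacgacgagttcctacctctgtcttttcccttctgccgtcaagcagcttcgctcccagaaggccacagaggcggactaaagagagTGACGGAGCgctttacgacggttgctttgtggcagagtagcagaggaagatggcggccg
Psmb8, chr17:34197945-34198244, plus strand: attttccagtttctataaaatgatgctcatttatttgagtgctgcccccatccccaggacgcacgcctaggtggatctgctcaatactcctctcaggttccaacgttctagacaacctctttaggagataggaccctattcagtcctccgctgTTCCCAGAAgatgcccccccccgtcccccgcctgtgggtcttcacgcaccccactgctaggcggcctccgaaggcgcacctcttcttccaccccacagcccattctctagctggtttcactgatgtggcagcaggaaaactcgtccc
Psme1, chr14:55578244-55578543, plus strand: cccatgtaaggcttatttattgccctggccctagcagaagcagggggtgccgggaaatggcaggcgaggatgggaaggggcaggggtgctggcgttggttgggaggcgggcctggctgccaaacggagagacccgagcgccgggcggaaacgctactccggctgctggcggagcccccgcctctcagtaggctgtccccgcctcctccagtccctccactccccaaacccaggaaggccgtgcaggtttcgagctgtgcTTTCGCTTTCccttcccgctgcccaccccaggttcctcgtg
The Psmb5 match starts at position -47 from the start, the Psmb6 match at -9, the Psmb8 match at -97 and the Psme1 match at 10. Both strands of 42 windows of 39 members were searched. The antioxidant core was found in 5 windows (11.9%), those of Psmb5, Psmb6, Psmc6, Psmd12 and Psme4, against 12.4% of the 32851 windows of all genes. The gamma-activated site was found in 3 windows (7.14%), of Psmb8, Psmd2 and Psmg1, against 8.30% of all. The interferon core was found in 4 windows (9.52%), of Psmb3, Psmd4, Psme1 and Psmg4, against 3.44% of all, and the CCAAT box in 13 (31.0%) against 37.4% of all. The heat shock element (GAA, TTC and GAA, each parted by any 2 bases) was in 0 of the 42 windows and in 0.603% of all. No other searched motif matched in the 4 windows printed. These are examples and do not show which motifs go with a rise or a fall. Among the same classes of genes, Psme4 (antioxidant core) and Psmb9 and Psme3 (CCAAT box) also held matches, and their windows are not printed. No window of Psmb7 was searched. The windows of Psmb9 and Psmb10 held no match to the antioxidant, gamma-activated or interferon letters. A match is a match of letters, not a measured site.

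Psmb5, the chymotrypsin-like subunit, was the most abundant member in LPS+CPZ. It had 85.2, 95.7 and 107 FPKM in LPS+CPZ, 53.2, 44.7 and 69.6 FPKM in LPS+EtOH and 34.2, 40.6 and 31.7 FPKM in LPS. The groups did not overlap, with LPS+CPZ highest and LPS lowest. Its log2 change was 1.41 ± 0.17 for LPS+CPZ against LPS (limma adjusted p = 4.27e-05), the largest rise of any member in that comparison, and 1.72 under median-ratio scaling. For LPS+EtOH against LPS it was 0.62 ± 0.17 (limma adjusted p = 0.00584), higher under median-ratio scaling too but not called when globin genes were left out (0.32, limma adjusted p = 0.0913). LPS+CPZ exceeded LPS+EtOH by 0.79 ± 0.17 on the deposited scale (limma adjusted p = 0.0017) and by 0.02, not called, under median-ratio scaling.

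Psmb6, the caspase-like subunit, had 36.4, 44.1 and 47.5 FPKM in LPS+CPZ, 31.0, 30.4 and 29.7 FPKM in LPS+EtOH and 29.7, 32.7 and 29.5 FPKM in LPS. The LPS+CPZ libraries were above the others, and the other two groups overlapped. The log2 change for LPS+CPZ against LPS was 0.46 ± 0.12 (limma adjusted p = 0.00612), and it was not called when globin genes were left out (0.15, limma adjusted p = 0.327). Psmb7, the trypsin-like subunit, varied least of the 3, with 13.9, 17.8 and 17.4 FPKM in LPS+CPZ, 11.6, 12.8 and 12.5 FPKM in LPS+EtOH and 13.0, 14.0 and 12.7 FPKM in LPS. Its change for LPS+CPZ against LPS was 0.28 ± 0.12 and missed the threshold (limma adjusted p = 0.0581); it passed without LPS+CPZ replicate 1 (0.39, limma adjusted p = 0.0145) and under median-ratio scaling (0.57). Against LPS+EtOH, Psmb7 was higher in LPS+CPZ by 0.38 ± 0.12 (limma adjusted p = 0.0142), a call that was lost without LPS+CPZ replicate 2 (0.32), LPS+CPZ replicate 3 (0.33) or LPS+EtOH replicate 1 (0.34) and that turned to -0.35 under median-ratio scaling, as Psmb6 turned to -0.29.

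**Figure D2:**
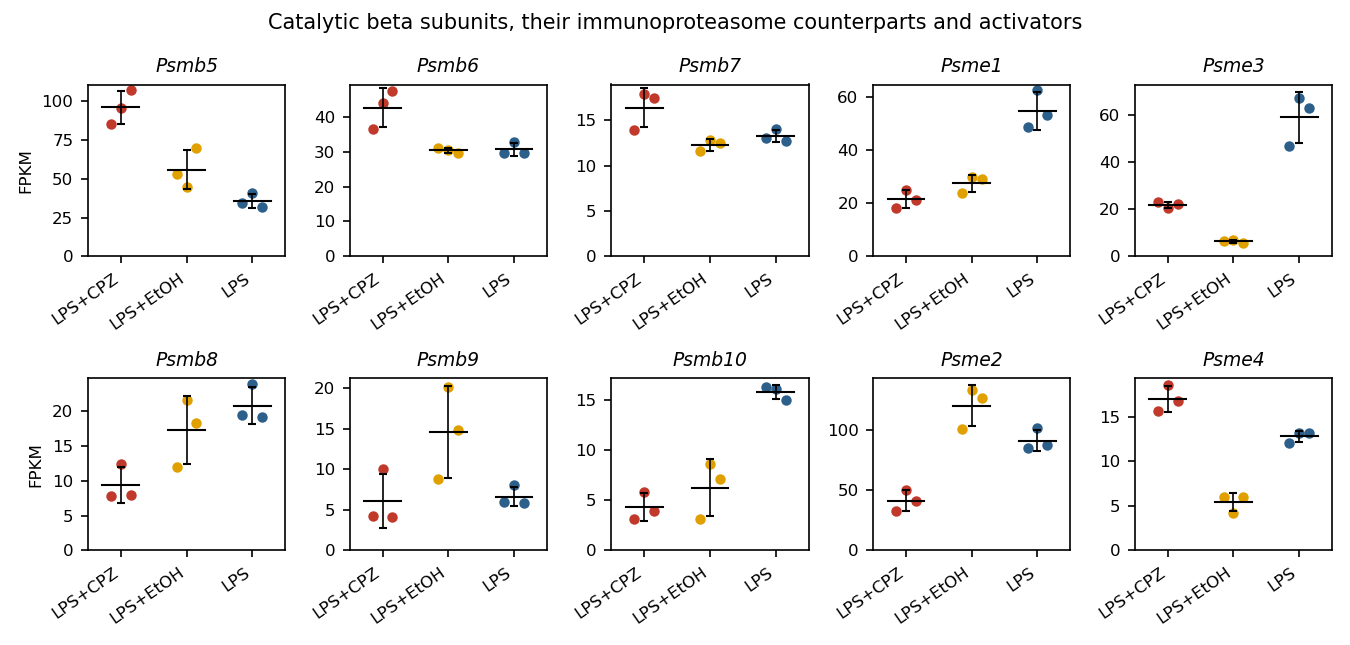
FPKM in each library (points), with the mean and SD of each group (lines, n = 3), for the catalytic genes Psmb5, Psmb6 and Psmb7, the immunoproteasome genes Psmb8, Psmb9 and Psmb10 under them, and the activator genes Psme1 to Psme4; each axis starts at 0. LPS+CPZ is highest for Psmb5 at 85.2 to 107 FPKM, and LPS is highest for Psmb10 at 14.9 to 16.2 FPKM and for Psme3 at 46.8 to 67.3 FPKM.

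The immunoproteasome genes did not follow the constitutive catalytic genes. Psmb8, the counterpart of Psmb5, had 7.80, 12.4 and 7.94 FPKM in LPS+CPZ, 11.9, 21.7 and 18.3 FPKM in LPS+EtOH and 19.5, 23.9 and 19.1 FPKM in LPS. The LPS+CPZ libraries were below all LPS libraries, and the LPS+EtOH libraries overlapped both. It was lower in LPS+CPZ than in LPS by a log2 change of -1.09 ± 0.22 (limma adjusted p = 0.00136) and lower than in LPS+EtOH by -0.81 ± 0.22 (limma adjusted p = 0.00708). For LPS+EtOH against LPS it was not called on the deposited scale (-0.28 ± 0.22, limma adjusted p = 0.253), was called higher under median-ratio scaling (0.76) and lower when globin genes were left out (-0.58).

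Psmb9, the counterpart of Psmb6, whose gene lies beside Tap1 and shares its promoter region, was the one immunoproteasome gene that rose in LPS+EtOH on the deposited scale. It had 4.18, 9.99 and 4.14 FPKM in LPS+CPZ, 8.76, 20.2 and 14.8 FPKM in LPS+EtOH and 6.03, 8.02 and 5.85 FPKM in LPS. All LPS+EtOH libraries lay above the LPS libraries, though the highest LPS+CPZ library exceeded the lowest LPS+EtOH library. The log2 change was 0.97 ± 0.33 for LPS+EtOH against LPS (limma adjusted p = 0.0172), and without LPS+EtOH replicate 2 it was 0.72 and not called (limma adjusted p = 0.0788). LPS+CPZ was lower than LPS+EtOH by -1.16 ± 0.33 (limma adjusted p = 0.0079), and LPS+CPZ against LPS was not called (-0.19 ± 0.33, limma adjusted p = 0.625).

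Psmb10, the counterpart of Psmb7, had 3.10, 5.84 and 3.94 FPKM in LPS+CPZ, 3.09, 8.56 and 7.09 FPKM in LPS+EtOH and 16.2, 16.0 and 14.9 FPKM in LPS. Both treated groups were well below LPS and overlapped each other. The log2 change was -1.69 ± 0.29 for LPS+CPZ against LPS (limma adjusted p = 0.00039), the largest fall of any member there. For LPS+EtOH against LPS it was -1.29 ± 0.29 (limma adjusted p = 0.00148), but -0.31 under median-ratio and -0.61 under quantile scaling, not called in either. LPS+CPZ against LPS+EtOH was not called (-0.40 ± 0.29, limma adjusted p = 0.224) except without LPS+EtOH replicate 1 (-0.76, limma adjusted p = 0.00697) and under median-ratio (-1.06) and quantile scaling (-0.87).

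Replicates of the treated groups spread widely for these 3 genes. Replicate 2 had the highest level in both treated groups for each of Psmb8, Psmb9 and Psmb10, and LPS+EtOH replicate 1 the lowest in its group. In LPS, replicate 2 was also highest for Psmb8 and Psmb9, while replicate 1 was highest for Psmb10. Whether the replicate numbers mark something shared between groups is not given. The interferon-regulated genes Tap1 and Irf1 were likewise lowest in LPS+EtOH replicate 1 of that group and highest in replicate 2 of both treated groups. Tap1, a subunit of the peptide transporter, had 20.9, 35.2 and 17.3 FPKM in LPS+CPZ, 37.3, 90.5 and 56.5 FPKM in LPS+EtOH and 28.5, 36.4 and 20.0 FPKM in LPS. Irf1, a transcription factor of interferon responses, had 19.1, 28.2 and 12.5, then 43.5, 92.4 and 58.9, then 43.8, 25.7 and 31.3 FPKM in those groups. Tap1 was higher in LPS+EtOH than in LPS (log2 change 1.04 ± 0.34, limma adjusted p = 0.0149), as Psmb9 was. Markers of T and NK cells, which hold immunoproteasomes, summed over 8 genes to 11.8 to 21.2 FPKM in LPS+CPZ, 0.951 to 1.84 FPKM in LPS+EtOH and 57.2 to 75.4 FPKM in LPS, with 3, 7 and 2 of the 8 below 1 FPKM in all libraries of those groups. The part of these cells and of the B cells in the levels of Psmb8 and Psmb10 was not tested.

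Within a library, the level of an immunoproteasome gene divided by that of the gene it replaces does not change with a factor applied to the whole library. Psmb8 over Psmb5 was 0.0915, 0.130 and 0.0743 in LPS+CPZ, 0.225, 0.485 and 0.264 in LPS+EtOH, against 0.569, 0.589 and 0.603 in LPS. The 3 groups did not overlap, and the mean log2 ratio was -3.38 ± 0.41 in LPS+CPZ, -1.71 ± 0.59 in LPS+EtOH and -0.77 ± 0.04 in LPS (SD, n = 3 each). The difference of -2.61 between LPS+CPZ and LPS compares with a pooled SD of 0.29 between libraries, and that of -0.94 between LPS+EtOH and LPS with 0.42.

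Psmb10 over Psmb7 was 0.224, 0.328 and 0.226 in LPS+CPZ, 0.267, 0.667 and 0.567 in LPS+EtOH, against 1.24, 1.14 and 1.17 in LPS. Psmb10 exceeded Psmb7 in each LPS library and in none of the others. On the log2 scale LPS+CPZ lay -2.22 from LPS (pooled SD 0.23) and LPS+EtOH -1.35 (pooled SD 0.50), while the LPS+CPZ and LPS+EtOH libraries overlapped. Psmb9 over Psmb6 had a different order, 0.115, 0.226 and 0.0873 in LPS+CPZ, 0.282, 0.664 and 0.4995 in LPS+EtOH, against 0.203, 0.245 and 0.198 in LPS. LPS+EtOH libraries were highest, by a mean log2 difference of 1.08 from LPS (pooled SD 0.46), and LPS+CPZ overlapped LPS (difference -0.71, pooled SD 0.51). With LPS+CPZ, then, all 3 mean ratios were lower than with LPS+EtOH, by -1.68, -0.87 and -1.79, and the libraries overlapped for Psmb10 over Psmb7.

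**Figure D3:**
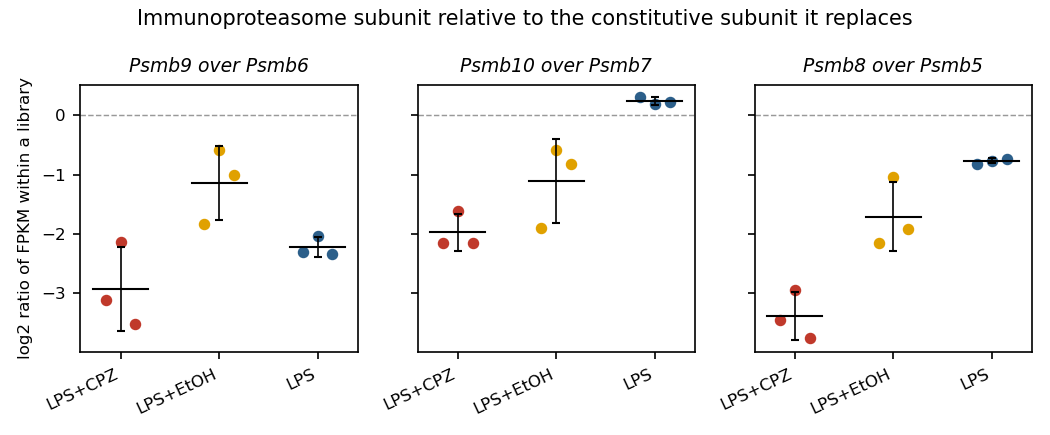
Log2 ratio of FPKM within each library (points), with the mean and SD of each group (lines, n = 3), for each immunoproteasome gene over the constitutive gene it replaces; the dashed line at 0 marks equal levels. The mean ratio of Psmb8 over Psmb5 is -3.38 in LPS+CPZ, -1.71 in LPS+EtOH and -0.77 in LPS, and LPS is above 0 for Psmb10 over Psmb7 alone.

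Most of the 17 genes of the regulatory particle fell in LPS+EtOH on the deposited scale. Against LPS, 14 were lower and none higher, and 64.6% of all genes were lower as well. Under median-ratio scaling 5 of the 17 were lower and 10 higher, against 42.1% and 37.8% of all genes, and under quantile scaling 10 were lower and 3 higher, against 39.5% and 35.5%. Psmc4, Psmc5, Psmd2, Psmd3 and Psmd6 were lower under each of these scalings. Psmc4, one of the ATPases that unfold substrates, had 20.1, 23.0 and 26.7 FPKM in LPS+CPZ, 6.46, 6.16 and 6.09 FPKM in LPS+EtOH and 24.4, 27.5 and 24.6 FPKM in LPS. LPS+EtOH was low in each library and the other groups overlapped. The log2 change was -1.87 ± 0.12 for LPS+EtOH against LPS (limma adjusted p = 2.20e-07; -0.86 under median-ratio scaling).

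Psmd2, the large scaffold of the base that docks ubiquitin shuttles, had 30.6, 36.5 and 40.8 FPKM in LPS+CPZ, 10.4, 7.55 and 9.27 FPKM in LPS+EtOH and 29.6, 29.9 and 29.5 FPKM in LPS. Its log2 change was 1.88 ± 0.14 for LPS+CPZ against LPS+EtOH (limma adjusted p = 1.80e-06), the largest rise of any member there, and -1.62 ± 0.14 for LPS+EtOH against LPS (limma adjusted p = 1.36e-06). Against LPS, each LPS+CPZ library was higher but the change of 0.26 ± 0.14 was not called (limma adjusted p = 0.122), except without LPS+CPZ replicate 1 (0.37, limma adjusted p = 0.0462) and under median-ratio (0.57) and quantile scaling (0.34). Psmd6, a lid subunit, had 7.42, 9.57 and 10.5 FPKM in LPS+CPZ, 4.05, 3.08 and 4.02 FPKM in LPS+EtOH and 13.7, 15.3 and 14.5 FPKM in LPS. The groups stood apart with LPS highest, which no ATPase gene showed, and the change was -1.72 ± 0.14 for LPS+EtOH against LPS (limma adjusted p = 9.31e-07) and -0.62 ± 0.14 for LPS+CPZ against LPS (limma adjusted p = 0.00264).

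With LPS+CPZ the regulatory particle was mixed relative to LPS: 9 of 17 genes were higher and 2, Psmd6 and Psmd8, lower, and under median-ratio scaling 13 were higher and Psmd6 alone lower. Of all genes, 20.7% were higher and 48.4% lower, and 27.5% and 34.1% under median-ratio scaling. Leaving out globin genes gave 6 higher and 4 lower members, against 14.9% and 59.6% of all genes. Psmd1, the other large scaffold of the base, had 35.9, 34.3 and 35.3 FPKM in LPS+CPZ, 16.8, 15.9 and 18.8 FPKM in LPS+EtOH and 15.4, 15.6 and 15.8 FPKM in LPS. Its LPS+CPZ libraries were about level with each other and far above the rest, with a log2 change of 1.12 ± 0.10 against LPS (limma adjusted p = 5.94e-06). Psmc6, another ATPase, had 40.3, 37.7 and 41.6 FPKM in LPS+CPZ, 14.8, 12.5 and 14.96 FPKM in LPS+EtOH and 21.6, 19.5 and 21.7 FPKM in LPS. The groups again stood apart, and the change against LPS was 0.90 ± 0.11 for LPS+CPZ (limma adjusted p = 5.00e-05) and -0.54 ± 0.11 for LPS+EtOH (limma adjusted p = 0.000892), the second turning to 0.49 under median-ratio scaling. Against LPS+EtOH, all 17 genes were higher in LPS+CPZ, as were 61.4% of all genes, with log2 changes of 0.42 to 1.88. Median-ratio scaling left 13 higher, against 35.6% of all genes, and Psmd14, the deubiquitinating subunit of the lid, lower (-0.31).

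Among the activators, the PA28 genes were lower in LPS+CPZ than in LPS and PA200 was higher. Psme1 had 18.2, 24.8 and 21.3 FPKM in LPS+CPZ, 23.7, 29.7 and 29.0 FPKM in LPS+EtOH and 48.6, 62.3 and 53.0 FPKM in LPS. Both treated groups lay below each LPS library and overlapped each other. Its log2 change was -1.31 ± 0.15 for LPS+CPZ against LPS (limma adjusted p = 2.84e-05) and -0.97 ± 0.15 for LPS+EtOH against LPS (limma adjusted p = 0.000119; 0.10 and not called under median-ratio scaling). For LPS+CPZ against LPS+EtOH it missed the threshold (-0.35 ± 0.15, limma adjusted p = 0.0547) and passed without LPS+CPZ replicate 2 (-0.46), without LPS+EtOH replicate 1 (-0.45) and under median-ratio (-1.10) and quantile scaling (-0.50).

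Psme2, the partner of Psme1 in the PA28 ring of the cytoplasm, parted from it in LPS+EtOH. It had 32.6, 50.03 and 40.9 FPKM in LPS+CPZ, 101, 134 and 127 FPKM in LPS+EtOH and 84.9, 101 and 87.7 FPKM in LPS, and was the most abundant member in both groups without CPZ. The LPS+CPZ libraries were below all others, and the LPS+EtOH and LPS libraries overlapped. The log2 change was -1.15 ± 0.17 for LPS+CPZ against LPS (limma adjusted p = 0.000169) and -1.54 ± 0.17 for LPS+CPZ against LPS+EtOH (limma adjusted p = 2.04e-05). For LPS+EtOH against LPS it was 0.39 ± 0.17 and missed the threshold (limma adjusted p = 0.0549); it passed when LPS+EtOH replicate 1 (0.51), LPS replicate 2 (0.47), LPS+CPZ replicate 1 or LPS+CPZ replicate 2 (0.39 each) was left out, and was 1.48 under median-ratio scaling. The near-identical copy Psme2b had 789 of 794 aligned transcript bases the same (99.4%). Psme2b was lower in LPS+CPZ than in LPS by -1.66 ± 0.18 (limma adjusted p = 2.02e-05). Unlike Psme2, it was also lower in LPS+EtOH than in LPS, by -0.81 ± 0.18 (limma adjusted p = 0.00157). Under median-ratio scaling that change was 0.26 and not called. How fragments were divided between the copies is uncertain, so the parting of Psme2 from Psme1 in LPS+EtOH is uncertain too.

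Psme3, which forms the nuclear PA28 ring, had the largest change of any member. It had 23.1, 20.4 and 22.1 FPKM in LPS+CPZ, 6.64, 6.90 and 5.71 FPKM in LPS+EtOH and 46.8, 67.3 and 63.0 FPKM in LPS. The groups were far apart, and the log2 change was -3.004 ± 0.15 for LPS+EtOH against LPS (limma adjusted p = 5.40e-08), -1.98 under median-ratio scaling, and -1.38 ± 0.15 for LPS+CPZ against LPS (limma adjusted p = 1.64e-05). Psme4, which encodes PA200, had 15.7, 18.6 and 16.7 FPKM in LPS+CPZ, 5.96, 4.23 and 5.97 FPKM in LPS+EtOH and 12.1, 13.1 and 13.1 FPKM in LPS. The groups did not overlap, with LPS+CPZ highest and LPS+EtOH lowest. Psme4 was higher in LPS+CPZ than in LPS by 0.38 ± 0.13 (limma adjusted p = 0.0263), a call lost without LPS+CPZ replicate 2 (0.32), LPS+CPZ replicate 3 (0.39) or LPS replicate 1 (0.35), under TPM scaling (0.34) and with globin genes left out (0.09). It was lower in LPS+EtOH than in LPS by -1.12 ± 0.13 (limma adjusted p = 1.56e-05), but not called under median-ratio scaling (-0.15).

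Psmf1, which encodes the proteasome inhibitor PI31, was low in all groups. It had 1.27, 1.92 and 1.71 FPKM in LPS+CPZ, 0.620, 0.517 and 0.532 FPKM in LPS+EtOH and 2.93, 3.75 and 3.60 FPKM in LPS. The groups did not overlap, and its log2 change against LPS was -0.75 ± 0.12 for LPS+CPZ (limma adjusted p = 0.000333) and -1.50 ± 0.12 for LPS+EtOH (limma adjusted p = 9.76e-07), lower under median-ratio scaling as well. Among the 6 assembly chaperones, Psmg2, which pairs with Psmg1 to start the alpha ring, had 3.26, 3.85 and 3.92 FPKM in LPS+CPZ, 1.01, 1.26 and 1.17 FPKM in LPS+EtOH and 5.64, 9.18 and 7.01 FPKM in LPS. It was lower than in LPS by -0.80 ± 0.15 in LPS+CPZ (limma adjusted p = 0.000898) and by -1.93 ± 0.15 in LPS+EtOH (limma adjusted p = 7.64e-07). Psmd5, a chaperone of the base, moved the other way in LPS+CPZ, with 4.26, 3.18 and 4.71 FPKM in LPS+CPZ, 1.41, 1.11 and 2.24 FPKM in LPS+EtOH and 1.67, 1.77 and 2.24 FPKM in LPS, a log2 change of 0.80 ± 0.18 against LPS (limma adjusted p = 0.00224). Psmd10, the chaperone also known as gankyrin, was called in no comparison on the deposited scale, with group means of 10.3 ± 0.979, 10.998 ± 0.728 and 11.6 ± 1.32 FPKM in LPS+CPZ, LPS+EtOH and LPS (SD, n = 3 each). Under median-ratio scaling Psmd10 was lower in LPS+CPZ than in LPS+EtOH (-0.81, limma adjusted p = 0.000253) and higher in LPS+EtOH than in LPS (0.94, limma adjusted p = 4.90e-05). Both calls also held under quantile scaling. With globin genes left out it was lower in LPS+CPZ than in LPS.

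Put side by side for LPS+CPZ against LPS, the constitutive core (alpha, structural beta and catalytic beta genes) had 10 of 14 genes higher and none lower, with 14, 12, 10 and 5 higher and none lower under median-ratio scaling, quantile scaling, TPM scaling and with globin genes left out. The immunoproteasome genes had 2 of 3 lower and none higher under all of these. Of the activators, Psme1, Psme2, Psme2b and Psme3 were lower under all of these too. These counts stand against 20.7% of all genes higher and 48.4% lower on the deposited scale. The shares were 27.5% and 34.1% under median-ratio scaling, 29.4% and 34.7% under quantile scaling and 18.7% and 48.6% under TPM scaling. With globin genes left out they were 14.9% and 59.6%, and 2 of 3 immunoproteasome genes lower is near that last share.

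The genes that feed and control the proteasome were followed as 6 lists of 52 genes, all of which were tested. For LPS+CPZ against LPS, 19 were higher and 13 lower, against 20.7% and 48.4% of all genes, and 25 and 8 under median-ratio scaling, against 27.5% and 34.1%. In LPS+EtOH against LPS, 16 were higher and 27 lower, against 19.0% and 64.6% of all genes, and 29 and 15 under median-ratio scaling, against 37.8% and 42.1%. In LPS+CPZ against LPS+EtOH, 33 were higher and 7 lower, near the 61.4% and 15.2% of all genes, and 20 and 18 under median-ratio scaling, near the 35.6% and 31.4%. Up to 3 genes of each list are named for having its smallest adjusted p; Sem1, Nfe2l1, Nfe2l2, Sqstm1 and Zfand2a, like Tap1 and Irf1 above, were chosen after their values were seen. The largest rise among the named genes that the rule picked was that of AI314180, known as Ecpas in current annotation, which encodes the proteasome adaptor ECM29. It had 101, 95.8 and 105 FPKM in LPS+CPZ, 14.5, 12.6 and 18.0 FPKM in LPS+EtOH and 11.03, 12.2 and 12.6 FPKM in LPS. The LPS+CPZ libraries were far above all others, with a log2 change of 2.97 ± 0.13 against LPS (limma adjusted p = 9.70e-08), and LPS+EtOH against LPS was not called on the deposited scale (0.30 ± 0.13, limma adjusted p = 0.0616).

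Ubb, which encodes ubiquitin as a chain of repeats, rose in both treated groups. It had 2106, 2137 and 2184 FPKM in LPS+CPZ, 1502, 1912 and 1756 FPKM in LPS+EtOH and 645, 704 and 698 FPKM in LPS. Both treated groups were above LPS, with a log2 change of 1.65 ± 0.14 for LPS+CPZ (limma adjusted p = 4.19e-06) and 1.33 ± 0.14 for LPS+EtOH (limma adjusted p = 6.28e-06), and higher under median-ratio scaling too.

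Of 9 genes that charge, extend or remove ubiquitin or assist at the proteasome, 3 were higher and 4 lower in LPS+CPZ than in LPS (20.7% and 48.4% of all genes). In LPS+EtOH, 1 was higher and 7 lower than in LPS (19.0% and 64.6%). Under median-ratio scaling 4 were higher and 2 lower in LPS+CPZ than in LPS (27.5% and 34.1%). For LPS+EtOH the balance turned round under that scaling, to 5 higher and 3 lower (37.8% and 42.1%). Uba6, a ubiquitin-activating enzyme, averaged 1.86 ± 0.138 FPKM in LPS+CPZ, 1.18 ± 0.142 FPKM in LPS+EtOH and 7.33 ± 0.561 FPKM in LPS (SD, n = 3 each), and Ube3c, a proteasome-bound ligase, 1.499 ± 0.160, 0.575 ± 0.0198 and 3.95 ± 0.391 FPKM. Both genes were lower than in LPS in both treated groups, also under median-ratio scaling. The lid gene Sem1 was higher in LPS+EtOH than in LPS on both scales, while 14 of the 17 regulatory particle members were lower on the deposited scale and 10 were higher under median-ratio scaling. It had 14.6, 17.5 and 21.1 FPKM in LPS+CPZ, 38.8, 39.7 and 43.5 FPKM in LPS+EtOH and 9.88, 9.99 and 10.1 FPKM in LPS. Its log2 change was 1.92 ± 0.13 for LPS+EtOH against LPS (limma adjusted p = 2.96e-07; 2.95 under median-ratio scaling) and 0.75 ± 0.13 for LPS+CPZ against LPS (limma adjusted p = 0.000501).

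Of 9 ubiquitin receptors and shuttles, all were higher in LPS+CPZ than in LPS+EtOH on the deposited scale (61.4% of all genes) and 6 were so under median-ratio scaling (35.6%), with none lower. Ubqln1 averaged 23.3 ± 1.62 FPKM in LPS+CPZ, 4.97 ± 1.04 FPKM in LPS+EtOH and 23.9 ± 1.88 FPKM in LPS, so that LPS+EtOH alone was low. Ubqln4 was lower than LPS in both treated groups, at 6.64 ± 0.395 FPKM in LPS+CPZ, 2.66 ± 0.242 FPKM in LPS+EtOH and 14.1 ± 2.35 FPKM in LPS. The autophagy receptor Sqstm1 rose in both treated groups, with 3264, 3534 and 3737 FPKM in LPS+CPZ, 1808, 2079 and 1852 FPKM in LPS+EtOH and 1227, 1072 and 934 FPKM in LPS, and a log2 change of 1.71 ± 0.16 for LPS+CPZ against LPS (limma adjusted p = 6.16e-06). Zfand2a, an arsenite-inducible proteasome-associated gene, had 79.2, 97.1 and 95.1 FPKM in LPS+CPZ, 25.6, 5.55 and 24.1 FPKM in LPS+EtOH and 2.84, 10.2 and 7.92 FPKM in LPS, a log2 change of 3.65 ± 0.52 for LPS+CPZ against LPS (limma adjusted p = 0.000118).

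For the p97 segregase, which extracts ubiquitinated proteins, 5 of 7 genes were higher in LPS+CPZ than in LPS, and Faf2 alone was called lower. Of all genes, 20.7% were higher and 48.4% lower. Under median-ratio scaling 6 of the 7 were higher and none was lower, against 27.5% and 34.1% of all genes. Ubxn4, a p97 adaptor of the endoplasmic reticulum, rose in both treated groups, to 87.6 ± 3.43 FPKM in LPS+CPZ and 47.9 ± 2.96 FPKM in LPS+EtOH, against 25.2 ± 0.856 FPKM in LPS. Nploc4, part of the ubiquitin-binding cofactor of p97, averaged 51.6 ± 0.472 FPKM in LPS+CPZ, 17.7 ± 1.75 FPKM in LPS+EtOH and 23.0 ± 0.858 FPKM in LPS, and Nsfl1c, another cofactor, 11.1 ± 1.19, 3.20 ± 0.286 and 10.6 ± 0.704 FPKM. Nploc4 was thus higher in LPS+CPZ than in LPS (1.13 ± 0.11, limma adjusted p = 7.58e-06), and Nsfl1c was not called there (0.05 ± 0.12, limma adjusted p = 0.691).

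Of 12 known regulators of proteasome genes, 4 were higher and 2 lower in LPS+CPZ than in LPS, against 20.7% and 48.4% of all genes, and 6 and 1 under median-ratio scaling, against 27.5% and 34.1%. Nfe2l1, which drives proteasome genes when proteasome activity is low, had 29.4, 22.8 and 22.7 FPKM in LPS+CPZ, 9.52, 8.29 and 10.9 FPKM in LPS+EtOH and 32.7, 27.8 and 26.2 FPKM in LPS. It was not called for LPS+CPZ against LPS (-0.21 ± 0.15, limma adjusted p = 0.226) and was lower in LPS+EtOH (-1.50 ± 0.15, limma adjusted p = 3.12e-06). Nfe2l2, the regulator of antioxidant genes, was higher than in LPS in both treated groups, with 398, 357 and 370 FPKM in LPS+CPZ, 494, 532 and 529 FPKM in LPS+EtOH and 304, 251 and 197 FPKM in LPS. Mafk, a small MAF partner of both, rose to 56.4 ± 3.70 FPKM in LPS+CPZ and 66.2 ± 5.62 FPKM in LPS+EtOH, against 24.0 ± 3.90 FPKM in LPS. Hsf1, the heat shock factor, was low and fell to 1.85 ± 0.567 FPKM in LPS+CPZ and 0.445 ± 0.0926 FPKM in LPS+EtOH, against 3.33 ± 0.346 FPKM in LPS, and Nfyc, a subunit of the CCAAT-binding factor, averaged 4.56 ± 0.523, 1.97 ± 0.0960 and 6.97 ± 0.477 FPKM in those groups. Levels of a transcript do not show the activity of the factor.

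Of 11 genes of class I loading and its regulators, 1 was higher and 3 lower in LPS+CPZ than in LPS, against 20.7% and 48.4% of all genes. Under median-ratio scaling 2 were higher and 3 lower, against 27.5% and 34.1% of all genes. Erap1, which trims peptides in the endoplasmic reticulum, averaged 4.30 ± 0.784 FPKM in LPS+CPZ, 1.47 ± 0.210 FPKM in LPS+EtOH and 13.4 ± 2.48 FPKM in LPS. It was lower than LPS in both treated groups, also under median-ratio scaling. The chaperones Canx and Pdia3 were low in LPS+EtOH alone: Canx averaged 80.0 ± 4.27 FPKM in LPS+CPZ, 25.2 ± 3.41 FPKM in LPS+EtOH and 68.8 ± 3.54 FPKM in LPS, and Pdia3 64.5 ± 5.91, 26.3 ± 3.21 and 76.5 ± 1.41 FPKM. Neither was called for LPS+CPZ against LPS on the deposited scale.

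**Figure D4:**
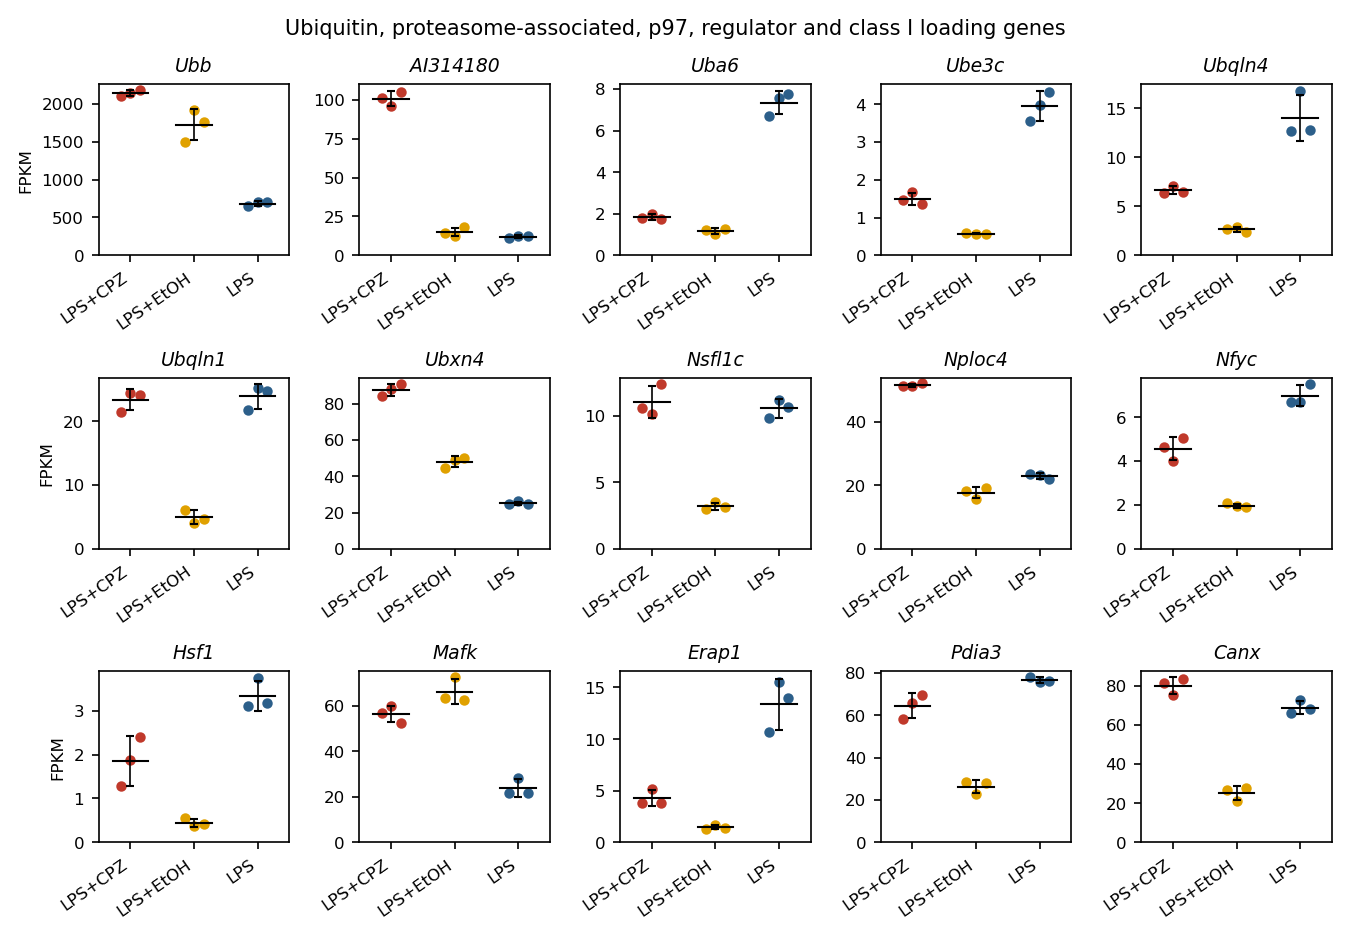
FPKM in each library (points), with the mean and SD of each group (lines, n = 3), for the named ubiquitin, proteasome-associated, shuttle, p97, regulator and class I loading genes; each axis starts at 0. AI314180 stands at 95.8 to 105 FPKM in LPS+CPZ and at 11.03 to 18.0 FPKM in the other groups, while Uba6, Ube3c and Erap1 are highest in LPS.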

How the data were processed

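RNA from LPS-treated mouse peritoneal macrophages was pooled and sequenced as strand-specific libraries, per the labels' protocols, with 3 libraries in each of 3 groups. The authors deposited 1 table of FPKM values; per the submitters' processing notes FastQC 0.11.2, STAR and StringTie were used, and the build is named there as hg38, although 55154 of the 55335 gene IDs are mouse IDs found in GENCODE M21. Fragment counts are not given and could not be recovered from the FPKM steps, so depth is unknown and no counting interval is printed. P-values measure the spread between pooled libraries, which may be technical.

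Values were tested as log2(FPKM + 1), a scale that understates changes of low genes, with limma 3.58.1 in R 4.3.3 (empirical Bayes with trend, 6 residual degrees of freedom before moderation) over the 11721 genes that reached 1 FPKM in 3 or more libraries, and Benjamini-Hochberg adjustment at 0.05. The fit was tested on simulated data. Within-library ratios are described without a test. Alternatives were median-ratio, quantile and TPM scaling, globin genes left out, other pseudocounts and filters, the replicate block, and each library left out. Members and gene lists were chosen with earlier results of these data known. Values in every library are given for the catalytic, immunoproteasome and activator genes and for the gene with the smallest adjusted p of each other class in each comparison; Psma6, Psmd5 and Psmf1 were added after their values were seen. Some genes that the rule for named genes picks are not reported here. Promoters come from the RefSeq table on GRCm38.p6, and windows of 39 of 46 members were searched. Member windows on a single chromosome were left out of that search, while the share over all genes kept that chromosome. Summaries and figures used Python 3.11.15 with pandas 2.3.3, numpy 2.4.6 and matplotlib 3.10.9.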

Additional observations from a re-analysis of the deposited data

How the results depend on the processing

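For LPS+CPZ against LPS+EtOH, the 37 higher members became 24 under median-ratio scaling and 24 when a log2 change of at least 1 in size was also asked, and the 4 lower members became 13 under median-ratio scaling, 8 under quantile scaling and 2 with that size limit. For LPS+EtOH against LPS, the 3 higher members became 24 under median-ratio scaling, 13 under quantile scaling, 1 with globin genes left out and 0 with the size limit, and the 32 lower became 10, 20 and 14 under median-ratio scaling, quantile scaling and the size limit. For LPS+CPZ against LPS, the 21 higher members became 12 with globin genes left out and 2 with the size limit, which left 6 of 11 lower. Under median-ratio scaling, 9 members called on at least 1 of the scales turned sign for LPS+CPZ against LPS+EtOH, 25 for LPS+EtOH against LPS and 0 for LPS+CPZ against LPS. Among the members that the rule for named genes picked, these were Psmb6 (-0.29), Psmb7 (-0.35) and Psmb3 (-0.18) for LPS+CPZ against LPS+EtOH, and Psmb8 (0.76), Psmb6 (1.05), Psmb7 (0.92, and 0.48 under quantile scaling), Psme1 (0.10), Psma3 (0.28), Psma4 (0.0665) and Psmc6 (0.49) for LPS+EtOH against LPS. The cause was not tested. The log2 ratio of Psmb10 over Psmb7 for LPS+CPZ against LPS was -1.97 with a pseudocount of 1, which shrinks ratios of low values.

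Leaving out 1 library at a time gave 34 to 37 higher and 4 to 6 lower members for LPS+CPZ against LPS+EtOH, 2 to 4 and 29 to 32 for LPS+EtOH against LPS, and 19 to 23 and 10 to 12 for LPS+CPZ against LPS. In the same order of comparisons, differences in log2 ratio ranged from -2.18 to -1.49, 0.81 to 1.43 and -1.10 to -0.41 for Psmb9 over Psmb6, from -1.27 to -0.61, -1.61 to -0.95 and -2.40 to -2.12 for Psmb10 over Psmb7, and from -1.90 to -1.34, -1.27 to -0.71 and -2.83 to -2.43 for Psmb8 over Psmb5. Deviations of same-numbered libraries correlated at -0.006 to 0.26 and those of differently numbered libraries at -0.20 to 0.13. Not every library correlated best with its own number. The column names of both treated groups share a first part for each number, but the labels do not say what the numbers mark. These correlations do not settle whether the libraries are paired, and the main fit and the ratio SDs ignore any pairing. With the replicate block, the counts were 37 and 5, 4 and 32, and 21 and 11. Psme1 for LPS+CPZ against LPS+EtOH (-0.35, limma adjusted p = 0.0138) and Psme2 for LPS+EtOH against LPS (0.39, limma adjusted p = 0.0119) passed with it.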
